A study of Mus musculus with 6 samples.

Results

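The 40 imprinted genes examined here are genes of which mouse cells use mainly the copy from one parent, at least in some tissues. They were chosen as a list of names rather than by a measured value, but with earlier results of these data known. Of the 40 genes, 38 were in the GENCODE vM1 annotation of mm9. The start of Kcnq1ot1 was placed by matching its RefSeq promoter sequence to chromosome 7, where it occurred 1 time, and Peg13 was not in the annotation and was not examined. A methylated region belonged to a gene when the summit of a peak lay in the gene or within 10 kb of it. By this rule, 247 of the 170444 regions in the data belonged to the imprinted genes.

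The data were MeDIP-seq peak lists from primary mesangial cells of the mouse, which hold the capillaries of the kidney glomerulus together. In MeDIP-seq, an antibody to methylated cytosine pulls down DNA fragments, and places where fragments pile up are called as peaks. All 6 samples came from cells of passages 3 to 6 grown in Dulbecco's medium with 25.5 mM glucose and 20% serum. The 3 control samples had no TGF-β1, and the 3 treated samples were given TGF-β1, a growth factor that drives scarring in the kidney, at 10 ng/ml for 72 h. The study calls the samples of a group biological replicates, but neither it nor the labels states whether they were separate cultures or animals, and the p-values measure only the spread between these samples. Peak calling used 9407103 to 11494356 reads in the control and 12634300 to 13291419 reads in the TGF-β1-treated samples, and thus every treated sample was deeper than every control sample. The lists hold peaks and no genotype or gene expression, so that neither the parental copies nor mesangial cell markers could be examined with them.

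Imprinting is set in the germ line. An imprinting control region gains methylation in the egg or in the sperm, and after fertilisation it keeps that methylation on one parental copy in nearly all tissues, with the help of the zinc finger protein ZFP57, which binds the methylated hexamer TGCCGC. Most control regions are promoters methylated on the maternal copy, such as those of Kcnq1ot1, Peg3 and Plagl1. A few lie between genes and are methylated on the paternal copy, as upstream of H19 and Meg3, where the methylated copy keeps the insulator protein CTCF or the Meg3 promoter from acting. A peak at a control region is therefore the usual state of a body cell. The assay does not separate the parental copies, and it does not give the methylated share of the DNA.

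The reference sequence under 4 regions is shown to give the CpG content where peaks were called at these genes. Each of the following is 300 bases of mm9 (NCBIM37), plus strand, around the highest peak of a region, with the CpG dinucleotides, the sites of methylation, in capitals. All 4 lie in windows set at imprinting control regions and were chosen because they were called in every sample. They include the 3 leading regions with the highest mean fold enrichment (Plagl1, Grb10 and Meg3 intergenic). The mean fold enrichment of the Kcnq1ot1 region was above that of 31.1% of shared regions only.
Plagl1, chr10:12809616-12809915: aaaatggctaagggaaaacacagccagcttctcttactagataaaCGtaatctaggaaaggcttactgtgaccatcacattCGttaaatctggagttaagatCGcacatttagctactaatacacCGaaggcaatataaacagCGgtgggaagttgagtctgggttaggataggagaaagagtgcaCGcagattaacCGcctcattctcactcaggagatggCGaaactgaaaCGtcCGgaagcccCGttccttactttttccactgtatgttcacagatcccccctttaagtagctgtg
Kcnq1ot1, chr7:150481015-150481314: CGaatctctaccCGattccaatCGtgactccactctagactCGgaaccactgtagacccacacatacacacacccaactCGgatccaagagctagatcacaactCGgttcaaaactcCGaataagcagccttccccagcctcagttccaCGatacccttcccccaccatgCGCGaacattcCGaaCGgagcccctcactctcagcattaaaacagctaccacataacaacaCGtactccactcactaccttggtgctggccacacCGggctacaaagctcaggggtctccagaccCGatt
Grb10, chr11:11927909-11928208: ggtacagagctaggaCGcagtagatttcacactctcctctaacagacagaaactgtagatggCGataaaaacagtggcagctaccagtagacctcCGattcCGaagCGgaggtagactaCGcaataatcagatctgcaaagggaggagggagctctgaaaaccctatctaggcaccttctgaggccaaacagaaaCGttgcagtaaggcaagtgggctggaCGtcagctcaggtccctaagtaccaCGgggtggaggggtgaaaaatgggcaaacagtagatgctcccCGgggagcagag
Meg3 intergenic, chr12:110765638-110765937: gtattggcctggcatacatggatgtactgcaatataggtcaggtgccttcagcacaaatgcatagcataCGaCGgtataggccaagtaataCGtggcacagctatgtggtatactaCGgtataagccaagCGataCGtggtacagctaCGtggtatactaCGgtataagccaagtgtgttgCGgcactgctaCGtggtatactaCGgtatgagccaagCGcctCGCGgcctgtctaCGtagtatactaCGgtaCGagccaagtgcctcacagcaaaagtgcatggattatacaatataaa
These stretches held 11, 15, 10 and 17 CpGs, respectively. In the Meg3 intergenic stretch the 12 bases gtatactacggt occurred 4 times, whereas in each of the other stretches no run of 12 bases occurred more than 1 time. That stretch was also the only one of the 4 with the hexamer TGCCGC on either strand.

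To ask whether peaks were called at the imprinting control regions in mesangial cells, 18 windows were examined. The windows were set from general knowledge by distance from annotated starts, not from mapped borders of control regions. A peak counted where any base of it lay in a window, so it may lie outside the control region itself. Of the 18 windows, 15 reached 2 kb either side of a transcription start and are methylated on the maternal copy. The other 3 lay upstream of H19 (2 to 4 kb), Meg3 (9 to 15 kb) and Rasgrf1 (27 to 35 kb) and are methylated on the paternal copy. The Rasgrf1 window and most of the Meg3 window lay beyond the 10 kb flank, and their regions are not among the 247. In 9 of the 18 windows, every sample had a peak, and these were the windows of Kcnq1ot1, Peg3, Peg10, Plagl1, Grb10, Zrsr1, Inpp5f, the Meg3 intergenic region and Rasgrf1. A further 8 windows had a peak in 1 to 5 samples, and the H19 window had none. With windows of 1 kb at the starts, 8 of 18 had a peak in every sample, since the Grb10 peak then lay outside. The Mest and Nespas windows then had no peak in any sample.

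The highest pileup, the number of extended reads over a peak's summit, was found at the Meg3 intergenic region and at Plagl1. At the Meg3 intergenic region, which silences Dlk1 or Meg3 according to parent, the control samples had 45, 50 and 57 reads and the TGF-β1-treated samples 60, 61 and 73 reads, here and throughout in the order of replicates 1, 2 and 3. The raw pileups of the groups did not overlap, but the treated samples were also the deeper ones. After centring on the median of each sample, the groups overlapped, with a log2 fold change of 0.13 (SE 0.15, 95% interval from -0.17 to 0.44). The region lay 13423 bp upstream of the Meg3 start (chr12:110765357-110766065), and a second region, 14262 bp upstream, was also called in all 6 samples, at 21, 34 and 42 reads in control and 48, 33 and 34 reads in treated samples.

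At Plagl1, which encodes a zinc finger regulator of an imprinted growth network, the region upstream of the start (chr10:12809486-12809963, 731 bp from the nearest annotated start) had 49, 42 and 51 reads in control and 47, 57 and 62 reads in TGF-β1-treated samples. Its mean fold enrichment of 11.1 over the local background was above that of 94.2% of the 41744 regions called in all 6 samples. The groups overlapped, and the log2 fold change was -0.00 (SE 0.16, 95% interval from -0.33 to 0.33). In the window of Grb10, which encodes an adaptor that restrains insulin receptor signalling, the region chr11:11927842-11928269 was called throughout. Its summit lay 1732 bp upstream of the internal start on which the window was set, and 85 bp upstream of another annotated start. The region had 33, 27 and 25 reads in control and 29, 30 and 25 reads in treated samples. Its mean fold enrichment of 10.3 was above that of 90.9% of the shared regions, and the log2 fold change was -0.23 (SE 0.21, 95% interval from -0.66 to 0.20).

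**Figure D1:**
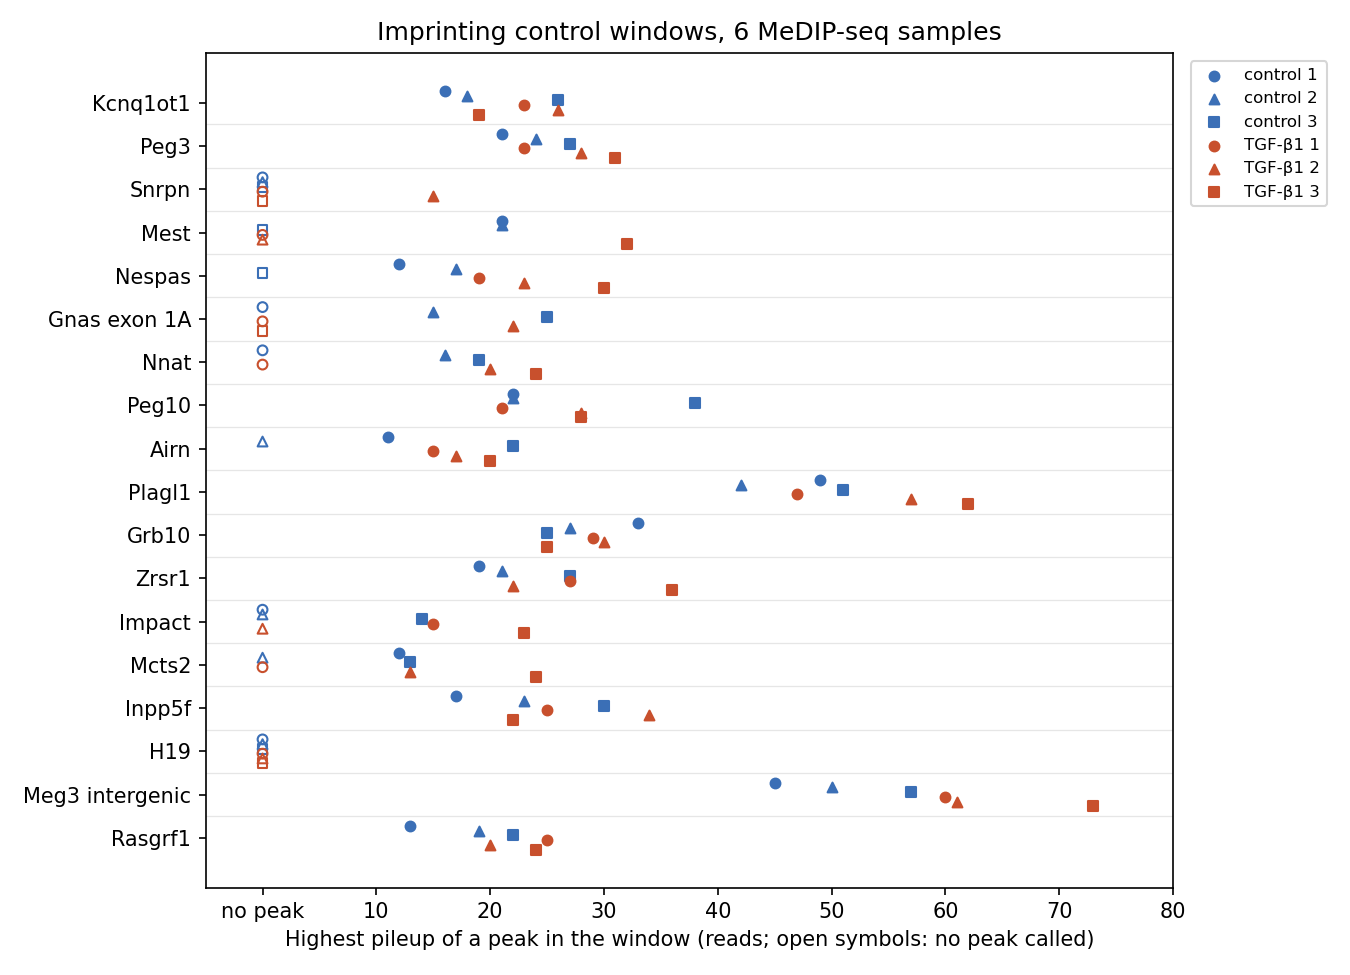
Highest pileup (reads, x axis) of any peak in each of the 18 imprinting control windows (y axis), with 1 symbol per sample, blue for control and orange for TGF-β1, and open symbols where no peak was called. The Meg3 intergenic and Plagl1 windows lie at 42 reads or more in every sample, the H19 window has no peak, and no other window exceeds 38 reads in any sample.

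In the remaining control windows at starts that held a region called throughout, these regions had 14 to 36 reads. At the start of Kcnq1ot1, the long RNA that silences its neighbours on the paternal copy, the region nearer the start (chr7:150481785-150482482, in an intron of Kcnq1) had 14, 14 and 26 reads in control and 23, 26 and 17 in treated samples. The other region, 1287 bp into the RNA (chr7:150480938-150481393), had 16, 18 and 25 reads in control and 18, 22 and 19 in treated samples. For both regions the groups overlapped. Upstream of Peg3, a zinc finger gene expressed from the paternal copy, the region chr7:6683220-6684056 had 21, 24 and 27 reads in control and 23, 28 and 31 in treated samples. In the window of Peg10, a gene derived from a retrotransposon, the region chr6:4696077-4696510 lay inside the neighbouring Sgce, which encodes ε-sarcoglycan, and had 22, 16 and 23 reads in control and 21, 26 and 28 in treated samples. In the exon of Zrsr1, a splicing factor gene inside Commd1, the region chr11:22873387-22874171 had 19, 21 and 24 reads in control and 27, 21 and 36 in treated samples. The groups overlapped in each of these regions, before and after centring.

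In the 2 other windows called throughout, no single region was called in every sample. At the internal start of Inpp5f, a phosphoinositide phosphatase gene, control replicates 2 and 3 and TGF-β1 replicates 1 and 2 had a peak upstream of the start, at 23, 30, 25 and 34 reads. Control replicate 1 and TGF-β1 replicate 3 had instead a peak downstream, at 17 and 22 reads. In the window upstream of Rasgrf1, a Ras activator, the region chr9:89773283-89773662 was called in 5 samples at 19 to 25 reads, and control replicate 1 had its only peak there in another region, at 13 reads.

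**Figure D2:**
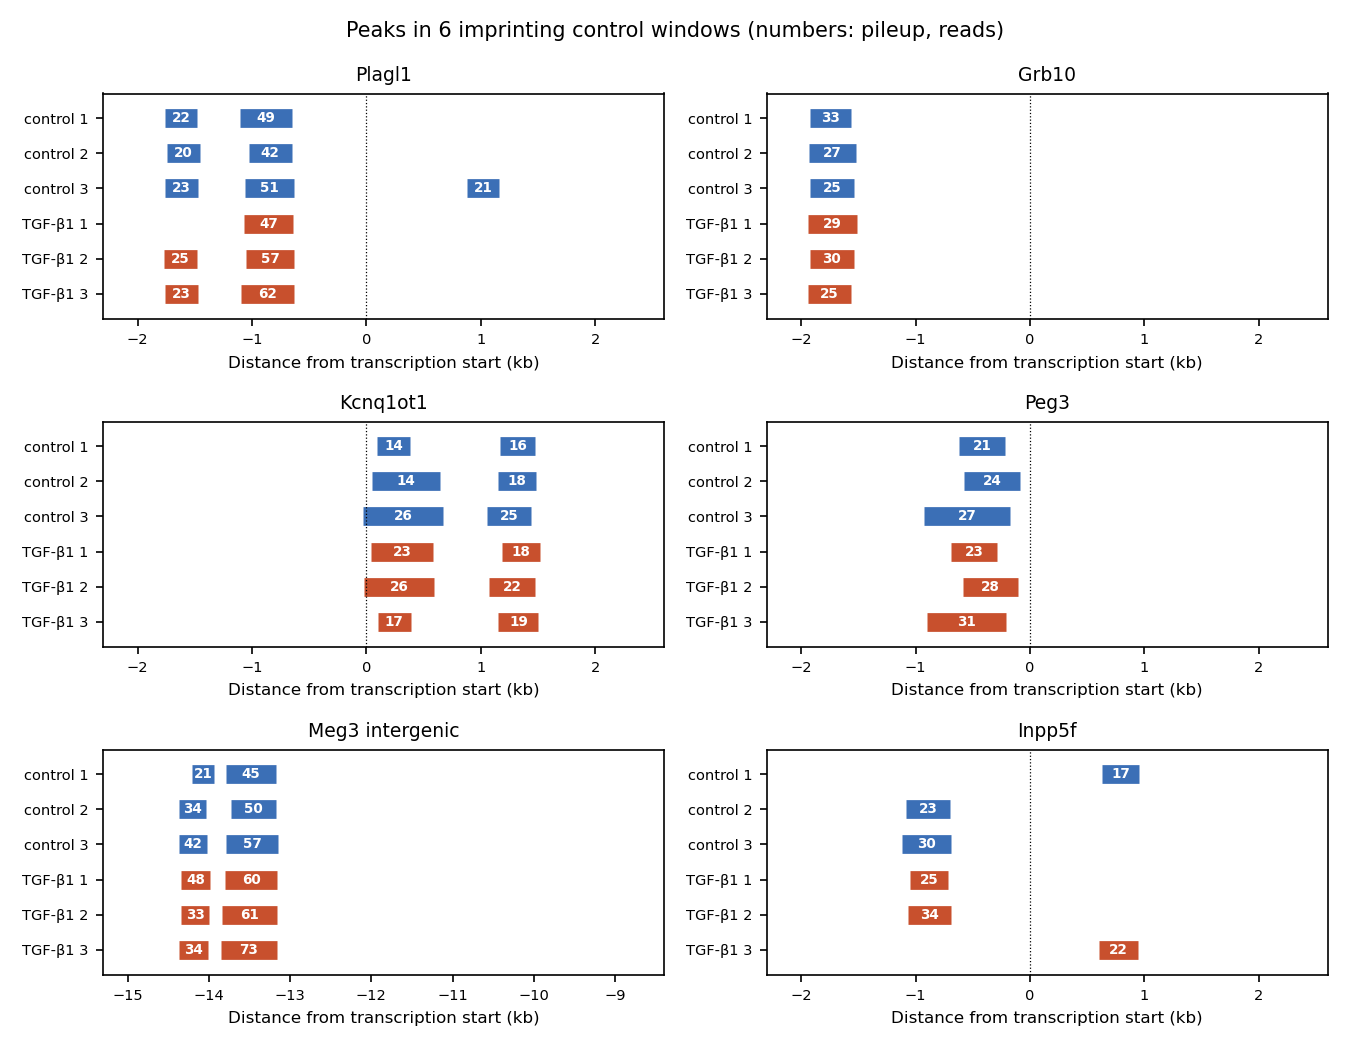
Peaks (bars) of each sample (rows, blue for control, orange for TGF-β1) in 6 control windows, by distance in kb from the transcription start (dotted line), with the pileup in reads written on each bar. At Plagl1, Grb10, Kcnq1ot1, Peg3 and the Meg3 intergenic region the same place is called in every sample, whereas at Inpp5f the peak is upstream of the start in 4 samples and downstream in 2.

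Windows called in some samples only had 11 to 32 reads, where the smallest pileup in a list was 8 reads in control and 9 or 10 in treated samples. The window of Nespas, an antisense RNA of the Gnas locus, had a peak of 12 and 17 reads in control replicates 1 and 2, none in control replicate 3, and 19, 23 and 30 reads in the treated samples. The window of Airn, the antisense RNA that silences Igf2r, had 11 and 22 reads in control replicates 1 and 3, none in control replicate 2, and 15, 17 and 20 reads in the treated samples. Both windows were called in every treated sample and in 2 of 3 control samples. At Airn these calls came from 2 separate regions, with control replicate 3 and TGF-β1 replicates 1 and 2 in the first and control replicate 1 and TGF-β1 replicate 3 in the second, and at a -log10 q of 5 the window was called in 4 samples. Nnat, a membrane proteolipid gene, had 16 and 19 reads in control replicates 2 and 3 and 20 and 24 in TGF-β1 replicates 2 and 3. Mcts2, a retrogene inside H13, had 12 and 13 reads in control replicates 1 and 3 and 13 and 24 in TGF-β1 replicates 2 and 3. Both windows lacked a peak in 1 control and 1 treated sample.

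Mest, a hydrolase gene, was called in its window in control replicates 1 and 2, at 21 reads each, and in TGF-β1 replicate 3, at 32 reads. The start of exon 1A of Gnas, which encodes the stimulatory G protein subunit, had peaks of 15 and 25 reads in control replicates 2 and 3 and of 22 reads in TGF-β1 replicate 2. The window of Impact, a translation regulator gene, had 14 reads in control replicate 3 and of 15 and 23 in replicates 1 and 3 of TGF-β1. At these 3 windows neither group was called as a whole. The window of Snrpn, the control region of the Prader-Willi and Angelman locus, had 1 peak, of 15 reads, in TGF-β1 replicate 2.

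The window upstream of H19, the noncoding RNA whose control region separates it from Igf2, had no peak in any sample, although its reference sequence holds 60 CpGs and 5 matches each to TGCCGC and to the CTCF core GGNGGCAG. The nearest region, chr7:149765572-149766015, ended just short of the window, 1756 bp upstream of the start at its summit, and was called at 13 reads in control replicate 2 and at 17, 14 and 13 reads in the treated samples. A window that failed the threshold may still hold reads, and reads that map to more than 1 place had been removed before peak calling.

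Promoters were then compared with those of other genes. Counting 2 kb either side of every annotated start, 12 of the 39 placed genes (30.8%) had a promoter peak in all 6 samples, against 4138 of 23640 protein-coding and lincRNA genes (17.5%). The 12 were Kcnq1ot1, Peg3, Mest, Gnas, Nespas, Peg10, Sgce, Meg3, Plagl1, Grb10, Zrsr1 and Inpp5f. At Mest and Meg3 no single promoter region was called in all 6 samples, and the calls came from separate regions near different starts. Gnas and Nespas shared a promoter region called in all 6 samples, and so did Peg10 and Sgce. The imprinted genes had a median of 3 annotated starts and all genes a median of 2, and with 1 start per gene, the most upstream, the shares were 7 genes (17.9%) and 9.08%. A further 12 imprinted genes, Igf2, Ins2, Kcnq1, Phlda2, Slc22a18, Usp29, Magel2, Mkrn3, Ube3a, Rian, Mirg and Kcnk9, had no promoter peak in any sample. This holds for annotated starts only, and Usp29 was annotated over 2.61 kb with 1 start. The other 15 genes had one in 1 to 5 samples, among them Dlk1, a Notch ligand relative, in 5, H19 in 4, and Cdkn1c, a cell cycle inhibitor, in 2. The most upstream start of each gene was also sorted by CpG content. Among those with at least 50 CpGs in the surrounding 1 kb, 960 of 10120 (9.49%) were called in every sample and 66.8% in none. Of the 9 control windows at starts with as many CpGs, 5 had a peak in all 6. The starts of these windows were picked for known control regions, and those of Grb10 and Inpp5f are internal. The shares are therefore not like for like.

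Across whole loci, the imprinted genes were called about as densely as other genes. The median of the 38 annotated genes was 0.928 regions per 10 kb of gene and flank, against 0.970 over all genes, and 19 of the 38 lay below the latter. Few regions for its length were found in the Prader-Willi locus on chromosome 7. Snrpn, Ndn, Magel2 and Mkrn3, which are expressed from the paternal copy, together had 3 regions, each called in 1 treated sample at 14 or 15 reads. Snrpn had 1 region in 158 kb, or 0.0563 per 10 kb, and its sequence held 4.32 CpGs per kb, against a median of 12.1 over the imprinted genes. Mkrn3 and Phlda2, a growth-restraining gene of the placenta, had none, as did 14.1% of all genes. Over the 38 genes, density and CpG content correlated with a Spearman rho of 0.52, a description in which neighbouring genes share sequence and regions.

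Igf2 and Ins2 also held few regions, at 0.277 and 0.245 per 10 kb, whereas H19 had 0.884, near the median of all genes. H19, Igf2, a fetal growth factor, and Ins2, an insulin gene, had 3 regions in all, and none was called in all 6 samples. The one shared by Igf2 and Ins2 (chr7:149855174-149855548) had 15 and 17 reads in control replicates 1 and 3 and 15 reads in TGF-β1 replicate 1. In contrast, Trappc9, a gene of vesicle traffic that spans 472 kb, held 66 regions, of which 17 were called in all 6 samples. Its density of 1.34 regions per 10 kb was lower than that of 9 imprinted genes, headed by Mcts2 (2.89) and Peg10 (2.41). In Mcts2 and its host H13, none of 9 regions was called in all 6 samples, and 5 were called in 1.

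**Figure D3:**
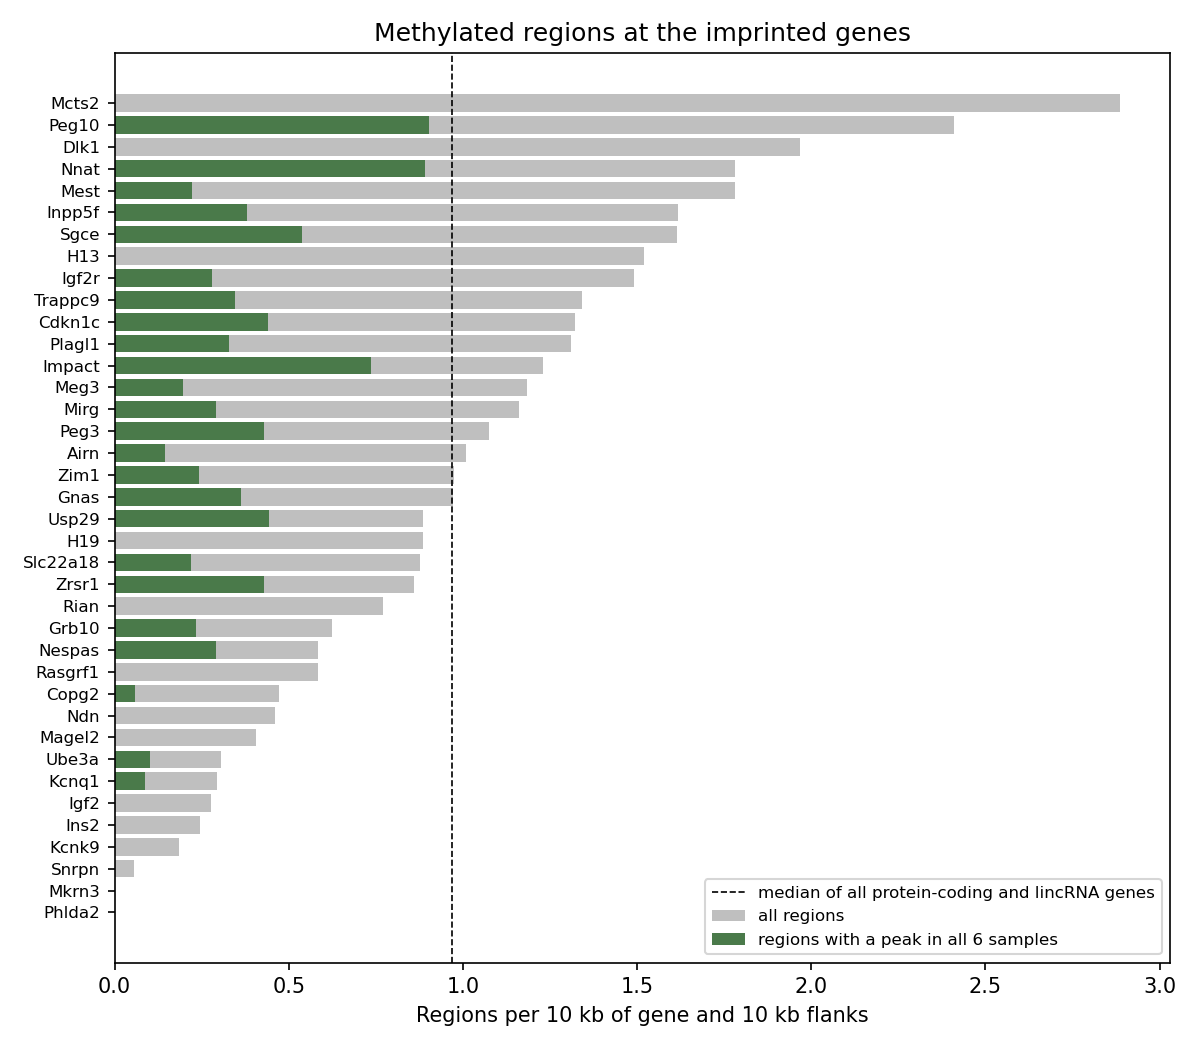
Regions per 10 kb of gene and 10 kb flanks (x axis) for the 38 annotated imprinted genes (y axis), with the part called in all 6 samples in green and the median of all protein-coding and lincRNA genes as a dashed line. The density runs from 0 at Phlda2 and Mkrn3 to 2.89 at Mcts2, and Snrpn stands at 0.0563.

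Of the 247 regions, 58 (23.5%) were called in all 6 samples and 66 (26.7%) in 1 sample, against 24.5% and 27.3% of all 170444 regions. By position, 56 regions lay within 2 kb of a start, 42 elsewhere in exons, 117 in introns and 32 in the flanks, and 12, 8, 28 and 10 of these were called in all 6 samples. The regions shared by all samples had a median of 9 CpGs per 300 bases, the same as over all shared regions. The letters TGCCGC occurred in 3 of 58 (5.17%), against 13.7% of the 41502 shared regions with sequence, and GGNGGCAG in 8 (13.8%), against 9.08%, counting both strands. In the 7 leading regions of the control windows, CpGs ranged from 8 to 17 with a median of 11, TGCCGC occurred in 1 and GGNGGCAG in 0. These are letters of the reference and not binding sites.

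The highest mean pileups among the 58 were found at Plagl1, described above, and in 2 introns of Trappc9. The region chr15:72538483-72539311 had 33, 35 and 45 reads in control and 47, 51 and 50 in treated samples. The region chr15:72662837-72663302 had 41, 36 and 40 reads in control and 59, 32 and 46 in treated samples. The raw pileups separated the groups in the first of these only, and after centring its log2 fold change was 0.18 (SE 0.17) and the groups overlapped.

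To ask whether TGF-β1 changed methylation at the imprinted genes, median-centred log2 pileups were compared by limma over all 41744 shared regions. In the imprinted genes, 0 of 58 regions passed an adjusted p of 0.05, and neither did any other shared region (0% of 41744). At an unadjusted p under 0.05, 3 of 58 regions were higher and 0 lower after TGF-β1, beside 1.96% of all shared regions higher and 2.22% lower. The median log2 fold change was 0.04 in the imprinted genes and -0.00 over all shared regions, and the median SE of an imprinted region was 0.21. With scaling by reads in place of the median, the median log2 fold change was -0.10 over all shared regions and -0.05 in the imprinted genes, and 1 region of the imprinted genes was higher and 1 lower, beside 212 and 2387 of all.

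Among the leading regions of the control windows, the log2 fold change ran from -0.23 at Grb10 to 0.14 at Zrsr1, and 0 of the 7 passed an unadjusted p of 0.05 (limma, adjusted p = 0.999 at Grb10). The 95% intervals of the 7 regions lay between -0.66 and 0.58. These intervals cover 0, and differences within each of them are not excluded.

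The smallest p was that of an intronic region of Kcnq1, a potassium channel gene. It had 11, 12 and 15 reads in control and 23, 24 and 21 reads in TGF-β1-treated samples. Every treated sample was above every control sample, before and after centring, with a log2 fold change of 0.63 (SE 0.21, limma with Benjamini-Hochberg adjustment, adjusted p = 0.999). This region did not belong to the Kcnq1ot1 control window.

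An intronic region of Sgce (chr6:4628563-4629378) had 18, 14 and 16 reads in control and 27, 22 and 27 in treated samples, a log2 fold change of 0.44 (SE 0.21, limma, adjusted p = 0.999). A region 9085 bp upstream of Impact had 27, 18 and 16 reads in control and 35, 26 and 36 in treated samples, a log2 fold change of 0.47 (SE 0.23, limma, adjusted p = 0.999). The groups were separate at Sgce and overlapped at Impact. Of 10 alternatives each, an unadjusted p under 0.05 was kept in 3 at Sgce and 4 at Impact. Both lost it when scaled by reads and in the fit to regions called in at least 3 samples. They also lost it without control replicate 2, control replicate 3, TGF-β1 replicate 1 or TGF-β1 replicate 3. Sgce lost it as well when the replicate number was fitted as a block. The log2 fold change at Impact was 0.22 without control replicate 3 and 0.75 without control replicate 1.

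In the other direction, the region at the upstream promoter of Inpp5f (chr7:135752839-135753585), which is not its imprinted start, had 36, 34 and 44 reads in control and 35, 33 and 39 in treated samples, a log2 fold change of -0.31 (SE 0.18, limma, adjusted p = 0.999). After centring, every treated sample was below every control sample. A Trappc9 intron (chr15:72612661-72613149) had 24, 19 and 19 reads in control and 20, 19 and 18 in treated samples, and a region in Gnas and Nespas (chr2:174111753-174112743) had 15, 19 and 16 reads in control and 11, 15 and 22 in treated samples. Their log2 fold changes were -0.34 (SE 0.22) and -0.33 (SE 0.23), with overlapping groups. Single samples moved both, the former to -0.17 without control replicate 1 and -0.48 without control replicate 3, the latter to -0.16 without control replicate 2, -0.12 without TGF-β1 replicate 1 and -0.57 without TGF-β1 replicate 3. In all, the groups did not overlap in 2 regions that were higher and 1 that was lower after TGF-β1, beside 4.33% and 4.95% of all shared regions.

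**Figure D4:**
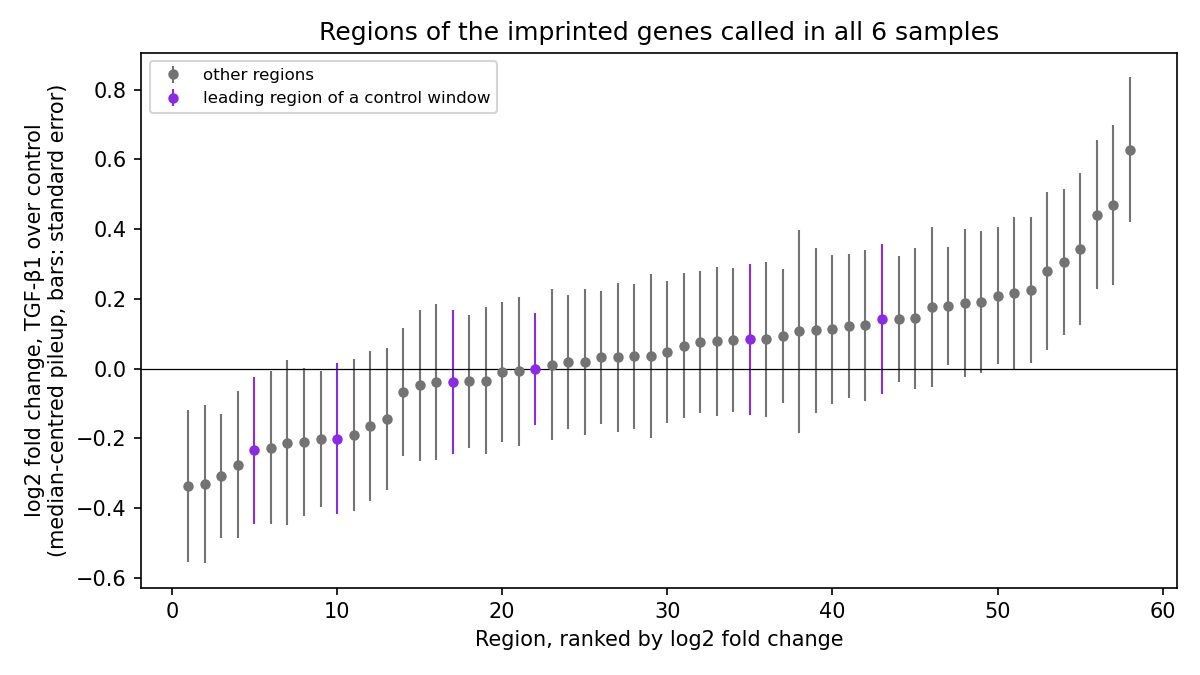
Log2 fold change of median-centred pileup, TGF-β1 over control (y axis, bars show the standard error), for the 58 regions of the imprinted genes called in all 6 samples, ranked (x axis), with 6 leading regions of control windows in purple (that of the Meg3 intergenic window is not among the 58). The values run from -0.34 to 0.63, and the control windows lie between -0.23 and 0.14.

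Finally, regions called in every sample of one group and in no sample of the other were counted. In the imprinted genes, 4 of 247 regions (1.62%) were called in the 3 treated samples alone, beside 0.948% of all regions, and 0 in the 3 control samples alone, beside 0.233%. An intronic region of Trappc9 (chr15:72861619-72861962) had 35, 34 and 30 reads in the treated samples. An intronic region of Airn (chr17:13030721-13031060) had 16, 16 and 23 reads. In an exon of Peg10 (chr6:4704482-4704938) there were 31, 19 and 16 reads, and in an exon of Rasgrf1 (chr9:89921535-89921926) there were 18, 15 and 25 reads. None of the 4 was in a control window. The treated samples were the deeper ones, and in these calls treatment and depth cannot be told apart.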

How the data were processed

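MeDIP-seq peak lists of 3 control and 3 TGF-β1-treated samples were analysed, grouped by their labels. Per the methods, labels and file headers, the authors mapped reads to mm9 with BWA, removed duplicates and called peaks in each sample with MACS2 2.1.0.20150731, at a q cutoff of 0.01 and without input. The deposited pileup is a signal value in extended reads, not normalised for depth. Fold enrichment, as deposited, is the ratio of pileup to a background taken over 10000 bp, and each deposited p-value and q-value is a -log10. Equal pileups could give the same fold enrichment at separate loci, as 5.49 for 15 reads in TGF-β1 replicate 2 at Snrpn and at Ndn. The background was thus not specific to the locus everywhere. The lists leave out reads of uncalled regions, so the authors' read-count test was not repeated.

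Peaks sharing 1 bp or more were joined into regions. Sequence and annotation were NCBIM37 (mm9) with GENCODE vM1, and the Kcnq1ot1 promoter was from RefSeq (GRCm38.p6). The highest pileup per region was compared on the log2 scale with limma 3.58.1 in R 4.3.3 (lmFit, eBayes with trend), with Benjamini-Hochberg adjustment over all shared regions, and other steps used Python 3.11.15. Tested on simulated data over 41744 regions, limma recovered 200 of 200 regions that had been moved up or down by 2 on the log2 scale, with 7 false calls. The simulation gave every region the same spread, and its moves were larger than any log2 fold change at the imprinted genes. It therefore does not show how often smaller changes would be found. Between samples, r of log2 pileup was 0.68 to 0.80. Regions named are those of every control window, those called in 1 group alone, the 3 with the smallest p in each direction and the 3 with the highest pileup. The members, lists and windows were chosen with earlier results of these data known. Peak calling used 9407103 to 13291419 reads per sample, and alternatives are given in the closing section. The reference sequence and position of 1 named region are not reported here.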

Additional observations from a re-analysis of the deposited data

How the results depend on the processing

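The 247 regions became 217 with a 2 kb flank, 241 when peaks up to 200 bp apart were joined and 240 when -log10 q had to reach 5. The 9 control windows called in every sample became 8 with 1 kb windows, and the 12 promoters became 10 (9.96% of all genes). Neither count changed at the stricter q, where 16.9% of all genes had a promoter peak in every sample. No region of the imprinted genes passed an adjusted p of 0.05 under any limma alternative, the lowest being 0.714 among 13 named regions. At an unadjusted p under 0.05, the 3 regions higher after TGF-β1 became 1 when scaled by reads (0.508% of all) and 5 of 146 among regions called in at least 3 samples (2.92% of all), and ran from 1 to 4 when each sample was left out (1.21% to 3.09% of all). The 0 lower regions became 1 when scaled by reads (5.72% of all) and ran from 0 to 2 (1.75% to 3.05% of all). Without control replicate 3, TGF-β1 replicate 1 or TGF-β1 replicate 3, 1 region was higher. The 4 regions called in treated samples alone became 2 when fold enrichment had to reach 5, where all regions gave 1158 in place of 1616. They ran from 4 to 9 when each sample was left out, where all regions gave 3026 to 4345 (8 without control replicate 2 or 3, 9 without TGF-β1 replicate 2). The 0 called in control samples alone ran from 0 to 3 (3 without control replicate 1), where all regions gave 818 to 1869. At Sgce and Impact, 3 and 4 of 10 alternatives kept an unadjusted p under 0.05. The Kcnq1 intron had an unadjusted p under 0.05 in 9 of 10 alternatives, the exception being the fit to regions called in at least 3 samples.

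With the replicate number as a replicate block, 2 regions were higher and 0 lower at an unadjusted p under 0.05, and 0 passed adjustment. Of all shared regions, 1.75% were higher and 1.92% lower in that fit. Deviations from the group mean correlated between same-numbered samples at -0.05, 0.04 and -0.13, and only control replicate 2 correlated best with its own number. No pairing by number was seen, but with so few samples these values cannot exclude it.

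Of 130 alternative log2 fold changes of the 13 named regions, 120 kept their direction and 10, at Peg3, Peg10, Plagl1 and Zrsr1, did not. Using fold enrichment gave 0.0103 at Peg3, -0.0515 at Peg10 and 0.122 at Plagl1, and scaling by reads gave -0.0076 at Peg10. When each sample was left out, Peg3 ran from -0.11 to 0.0518, Peg10 from -0.0063 to 0.21, Plagl1 from -0.0679 to 0.0842 and Zrsr1 from -0.0366 to 0.30. The cause of these changes was not tested. Pileups in the 58 shared regions of the imprinted genes were 9 to 63 reads, with a median SE of 0.21 on the log2 scale.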

Other observations

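A further 30 imprinted genes outside the list above were described by the same rule, of which 29 were in the annotation. They had 178 regions, of which 33 (18.5%) were called in all 6 samples, beside 24.5% of all regions. Of the 29 genes, 5 had a promoter peak in all 6, namely Blcap, Cd81, Cdh15, Ddc and Commd1, against 17.5% of all genes. Commd1, the host gene of Zrsr1, held 17 regions, 6 of them in all samples. Ppp1r9a, a neuronal scaffold gene near Peg10, held 37 regions, 6 of them in all samples, and no promoter peak. Peg12, Th, Ascl2 and Nap1l4 had no region. Of the 33 shared regions, limma called 0 at an adjusted p of 0.05, and at an unadjusted p under 0.05, 1 was higher and 0 were lower after TGF-β1, beside 1.96% and 2.22% of all shared regions. In these genes, 1 region was called in the treated samples alone and 0 in the control samples alone, beside 0.948% and 0.233% of all regions.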
